A study of Mus musculus with 5 samples.

Results

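The 9 genes described here encode complement proteins that myeloid cells of a tumour can make, or receptors with which such cells sense complement. They are the C1q chains C1qa, C1qb and C1qc, the central component C3, the alternative pathway proteins Cfb (factor B) and Cfp (properdin), the anaphylatoxin receptors C3ar1 and C5ar1, and Vsig4, a macrophage receptor for fragments of C3. They were chosen by name, and each of the 9 was found once among the 32285 genes of the deposited tables. Cells of the Lewis lung carcinoma line, from a lung cancer of the mouse, had received a guide RNA against Jag2 (JAG2KO, 2 libraries) or a scrambled guide (Scramble, 3 libraries) and were grown as flank tumours in mice. Jag2 encodes Jagged2, a ligand of Notch receptors. At endpoint the tumours were dissociated, live cells positive for CD45, which leukocytes carry, were sorted, and droplet-based single-cell RNA sequencing of transcript 3′ ends was run. The guide was in the injected tumour cells, so the macrophages, monocytes and neutrophils measured here were host cells of the mouse. The strain, sex and age of the mice, the number of guides or clones, and whether each library came from a separate mouse are not given in the sources used here. The p-values therefore measure the spread between these libraries, which may be technical.

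After filtering, 9450 and 17791 cells were kept in JAG2KO 1 and 2, against 8742, 9502 and 7563 in Scramble 1 to 3. The labels give 10000 cells encapsulated for each library, but 21854 barcodes were deposited for JAG2KO 2 and 10262 to 12706 for the other 4. The reason for the excess in JAG2KO 2 was not tested, and the same 8% of cells were removed as doublets in every library. JAG2KO 2 stood apart in depth, with a median of 2450 unique molecular identifiers (UMIs) per kept cell, while the other 4 libraries had medians of 7672.5 to 8616. Between 149 and 250 barcodes of each library also occurred in another library. Jag2 itself had 336 and 182 UMIs in the JAG2KO libraries (3.61 and 2.33 CPM, that is UMIs per 1000000 UMIs of the same cells), against 311, 268 and 315 UMIs in the Scramble libraries (3.92, 3.10 and 4.53 CPM). Cells resembling the tumour line held 0 and 0 Jag2 UMIs in JAG2KO and 0, 1 and 1 in Scramble, so these counts do not check the labels. Cells were assigned to classes by lists of 8 marker genes that include none of the 9 genes. Macrophages numbered 6995 and 13011 in JAG2KO and 6529, 7052 and 5327 in Scramble, and monocytes 380 and 320 in JAG2KO and 490, 472 and 488 in Scramble. Neutrophils numbered 217 and 329 in JAG2KO, against 786, 938 and 818 in Scramble. Fibroblasts and tumour-like cells lack CD45 and were few after the sort, with 14 and 64 fibroblasts in JAG2KO and 2, 2 and 4 in Scramble, and 55 and 90 tumour-like cells in JAG2KO and 24, 19 and 24 in Scramble. The summed macrophage markers stood at 7422 to 11596 CPM in macrophages and at 1540 to 3265 CPM in monocytes and neutrophils. The labels give the cell type as lung, but the sorted cells carried the markers of immune cells.

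Complement is a cascade of proteins that tags particles and cells for uptake and attracts leukocytes. C1q, assembled from 3 kinds of chain, starts the classical pathway, and factor B and properdin build and hold together the alternative pathway enzyme that cleaves C3. Cleavage of C3 and C5 releases the peptides C3a and C5a, which act on the receptors encoded by C3ar1 and C5ar1, and leaves C3 fragments on surfaces that are bound by receptors such as Vsig4. The liver makes most C3 of the blood, whereas tissue macrophages are a main source of C1q.

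All 9 genes are protein-coding and lie on the minus strand of the GRCm38 assembly in GENCODE annotation. The C1q chains are neighbours on chromosome 4, with C1qb at chr4:136880129-136886187, C1qc at chr4:136889804-136893065 and C1qa at chr4:136895917-136898803, a cluster of 18675 bases. C3 is at chr17:57203970-57228136, and Cfb is at chr17:34856374-34862518. The start of Cfb lies 85 bases from the 3′ end of C2, its neighbour on the same strand at chr17:34862604-34898265, and how reads between them were split is not given, so the Cfb level carries that uncertainty. C2 stood at only 0.502 to 1.25 CPM in macrophages. The receptors are at chr6:122847138-122856161 (C3ar1) and chr7:16246743-16259540 (C5ar1), and Cfp and Vsig4 are both on the X chromosome, at chrX:20925454-20931555 and chrX:96247203-96293438.

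Promoter sequences from RefSeq (GRCm38.p6, 250 bases before to 50 after the start) were matched for 7 of the 9 genes. Those of C1qb and C1qc are shown because these chains varied together across cell classes, and those of C3 and Vsig4 because these genes differed between JAG2KO and Scramble macrophages. Capitals mark the core motif of PU.1, the myeloid transcription factor (GAGGAA or its reverse complement), in C1qb, C1qc and Vsig4, and a motif of the C/EBP family (TTGCNNAA) in C3.
C1qb, chr4:136886151-136886450, minus strand: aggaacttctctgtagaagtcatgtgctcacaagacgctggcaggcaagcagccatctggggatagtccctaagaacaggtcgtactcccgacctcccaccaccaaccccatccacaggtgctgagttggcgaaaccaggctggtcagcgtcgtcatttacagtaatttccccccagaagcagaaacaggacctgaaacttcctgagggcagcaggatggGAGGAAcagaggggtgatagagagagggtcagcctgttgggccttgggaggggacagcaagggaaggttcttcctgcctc
C1qc, chr4:136892865-136893164, minus strand: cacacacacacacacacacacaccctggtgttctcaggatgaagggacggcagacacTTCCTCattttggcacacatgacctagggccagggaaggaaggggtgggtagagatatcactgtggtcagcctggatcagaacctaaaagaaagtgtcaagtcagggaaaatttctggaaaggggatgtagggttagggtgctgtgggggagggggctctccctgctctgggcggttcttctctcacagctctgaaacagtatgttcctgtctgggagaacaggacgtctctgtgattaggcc
C3, chr17:57228087-57228386, minus strand: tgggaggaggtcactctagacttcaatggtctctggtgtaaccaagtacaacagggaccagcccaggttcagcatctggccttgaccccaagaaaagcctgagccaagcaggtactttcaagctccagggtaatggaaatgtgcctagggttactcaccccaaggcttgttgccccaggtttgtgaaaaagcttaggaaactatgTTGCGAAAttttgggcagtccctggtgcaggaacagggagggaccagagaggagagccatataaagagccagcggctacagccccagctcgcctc
Vsig4, chrX:96293389-96293688, minus strand: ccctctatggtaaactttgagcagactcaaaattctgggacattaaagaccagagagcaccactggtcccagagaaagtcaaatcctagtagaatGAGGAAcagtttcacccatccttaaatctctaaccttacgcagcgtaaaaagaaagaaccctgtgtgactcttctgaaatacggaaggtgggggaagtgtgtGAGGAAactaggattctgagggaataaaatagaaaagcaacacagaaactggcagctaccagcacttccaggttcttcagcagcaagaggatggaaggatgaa
Both strands were searched, and overlapping matches of a motif were each counted. GAGGAA matched 1 time in C1qb, 1 time in C1qc, 2 times in Vsig4 and 2 times in Cfp, and it was present in 28.3% of all 32851 promoters of this length. TTGCNNAA matched 1 time in C3 and in none of the other 6 promoters, against 10.8% of all promoters. The NF-kB motif (GGG, then 5 bases of any kind, then CC) was not particular to C3 and was present in 50.8% of all promoters. It matched 4 times in C3, 2 times in C1qb, 2 times in C1qc, 1 time in C3ar1 and 1 time in Cfp. In C3, C1qb and C1qc these counts include matches that overlap each other. The RBPJ motif TGGGAA, through which Notch signals act on their targets, was in none of the 7 windows and in 25.6% of all promoters, and the interferon-stimulated motif (GAAA, then 2 bases of any kind, then GAAA) was in none of the 7 and in 3.44% of all. These are matches of letters in a window and not mapped binding sites.

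The C1q chains were macrophage genes in these tumours. C1qa stood at 3540 and 3581 CPM in JAG2KO macrophages and at 4090, 4261 and 3864 CPM in Scramble macrophages. Over the 5 libraries C1qb averaged 3373 ± 352 CPM and C1qc 2689 ± 236 CPM in macrophages (SD, n = 5). Macrophages held 95.1% to 98.0% of all C1qa UMIs of the kept cells in a library. This share is raised by their number, since macrophages gave most UMIs of every library. They also held 90.1% to 92.6% of the UMIs of Cfp, whose macrophage and monocyte ranges overlapped. Monocytes had 318 to 427 CPM of C1qa, a level 3.37 ± 0.15 lower on the log2 scale than that of macrophages of the same library (adjusted p = 2.31e-14, edgeR with the library as a block). T and NK cells, which are not a known source of C1q, had 198 to 348 CPM of C1qa, below the monocytes of the same library in each of the 5. Neutrophils had 523 to 785 CPM, a range above that of monocytes. C1qa was 2.04 ± 0.14 lower in neutrophils on the log2 scale than in macrophages (adjusted p = 2.04e-11, edgeR). How far carried-over macrophage RNA adds to the levels in monocytes, T and NK cells or neutrophils was not tested.

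C1qb UMIs per C1qa UMI were 0.805 to 0.906 in macrophages, 0.824 to 1.09 in neutrophils and 0.700 to 1.01 in T and NK cells. Monocytes had 1.02 to 1.26 and lay above the macrophages in each of the 5 libraries, and tumour-like cells, on few UMIs, had 0.660 to 1.36. C1qc UMIs per C1qa UMI were 0.638 to 0.745 in macrophages, 0.671 to 0.875 in neutrophils, 0.713 to 0.844 in monocytes and 0.626 to 0.800 in T and NK cells. Tumour-like cells had 20.2 to 47.0 CPM of C1qa in the 4 libraries with at least 20 such cells. The 64 fibroblasts of JAG2KO 2 had 1269 CPM of C1qa, against 116 CPM in the 14 fibroblasts of JAG2KO 1, and the summed macrophage markers differed in the same direction, at 1895 and 398 CPM. Their part in the C1q level was not tested.

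C3 had another order, with macrophages below monocytes and neutrophils. Fibroblasts, known as a tissue source of C3, had 1328 CPM in JAG2KO 1 (217 UMIs) and 981 CPM in JAG2KO 2 (133 UMIs). The few Scramble fibroblasts had 0, 6 and 21 C3 UMIs in 2, 2 and 4 cells. Monocytes had 244 and 187 CPM in JAG2KO, against 210, 201 and 239 CPM in Scramble. Neutrophils had 188 and 87.0 CPM in JAG2KO, against 147, 98.1 and 109 CPM in Scramble. Macrophages were lower, with 41.5 and 38.3 CPM in JAG2KO and 15.4, 20.4 and 21.0 CPM in Scramble. In every library C3 was therefore higher in monocytes and neutrophils than in macrophages, while the ranges of monocytes and neutrophils overlapped. C3 was 3.19 ± 0.20 higher in monocytes than in macrophages on the log2 scale (adjusted p = 8.99e-12, edgeR) and 2.83 ± 0.22 higher in neutrophils (adjusted p = 1.31e-10, edgeR). The scaling between classes adds 0.14 to the log2 differences of monocytes, 0.54 to those of neutrophils and -0.14 to those of tumour-like cells relative to plain CPM, and no direction given here turns on it. Against these tests, 56.0% of all 11317 genes differed between monocytes and macrophages, 63.3% between neutrophils and macrophages, and 70.1% between tumour-like cells and macrophages.

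C3 in monocytes and neutrophils did not follow C1q. For 100 C1qa UMIs there were 47.0 to 75.8 C3 UMIs in monocytes and 11.1 to 34.3 in neutrophils, against 0.376 to 1.17 in macrophages and 0 to 1.36 in T and NK cells. T and NK cells had at most 4.73 CPM of C3. Tumour-like cells had 0.566 to 6.59 CPM, which was 4.07 ± 0.51 lower than macrophages on the log2 scale (adjusted p = 2.10e-07, edgeR). Although low per cell, macrophages were so numerous that they held 51.7% to 79.1% of the C3 UMIs of a library, monocytes 7.17% to 30.9% and neutrophils 1.28% to 10.99%.

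Cfb, the protease of the alternative pathway, shared the order of C3 except in neutrophils. It stood at 171 and 162 CPM in JAG2KO fibroblasts (28 and 22 UMIs). Monocytes had 67.6 and 36.6 CPM in JAG2KO, against 74.1, 107 and 84.4 CPM in Scramble. Macrophages had 45.6 and 32.3 CPM in JAG2KO, against 24.2, 44.0 and 36.6 CPM in Scramble, a range that the monocytes overlapped. Within a library Cfb was 1.17 ± 0.15 higher in monocytes than in macrophages on the log2 scale (adjusted p = 6.58e-07, edgeR). Neutrophils had only 4.02 to 7.46 CPM, 2.10 ± 0.30 lower than macrophages (adjusted p = 2.57e-06, edgeR). Cfp, which stabilises the C3-cleaving enzyme and is known from neutrophils and monocytes, averaged 371 ± 45.4 CPM in macrophages, 293 ± 40.9 CPM in monocytes and 175 ± 32.0 CPM in neutrophils (SD, n = 5 each). The monocyte and macrophage ranges of Cfp overlapped, and the difference of -0.21 ± 0.10 on the log2 scale did not pass (adjusted p = 0.0724, edgeR), although it did with stricter marker gates (-0.34, adjusted p = 0.00634, edgeR).

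The anaphylatoxin receptors divided the myeloid cells differently. C3ar1 averaged 485 ± 72.7 CPM in macrophages, 171 ± 30.5 CPM in monocytes and 71.8 ± 27.6 CPM in neutrophils (SD, n = 5 each), and macrophages did not overlap with either. C5ar1 was highest in neutrophils, at 495 and 415 CPM in JAG2KO and 420, 428 and 455 CPM in Scramble. Macrophages had 342 and 246 CPM of C5ar1 in JAG2KO and 394, 303 and 318 CPM in Scramble, all below the neutrophils. The neutrophil level was 1.03 ± 0.12 higher than that of macrophages on the log2 scale (adjusted p = 6.49e-08, edgeR). There were 52.9 to 90.3 C5ar1 UMIs per 100 C1qa UMIs in neutrophils, against 6.88 to 9.65 in macrophages and 4.44 to 10.3 in T and NK cells. Monocytes had 140 to 197 CPM of C5ar1, 0.92 ± 0.12 lower than macrophages (adjusted p = 5.47e-07, edgeR).

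Vsig4, like the C1q chains, was found mostly in macrophages. It averaged 37.2 ± 12.7 CPM in macrophages (SD, n = 5), which held 96.3% to 98.5% of its UMIs in a library, a share that their number also raises. Monocytes had 1.48 to 5.97 CPM and neutrophils 2.17 to 10.0 CPM, and these ranges overlapped. No Vsig4 UMI was found in the fibroblasts of any library. All 9 genes were lower in tumour-like cells than in macrophages, by 4.07 to 6.95 on the log2 scale. The direction of each of these class differences was the same with stricter gates.

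**Figure D1:**
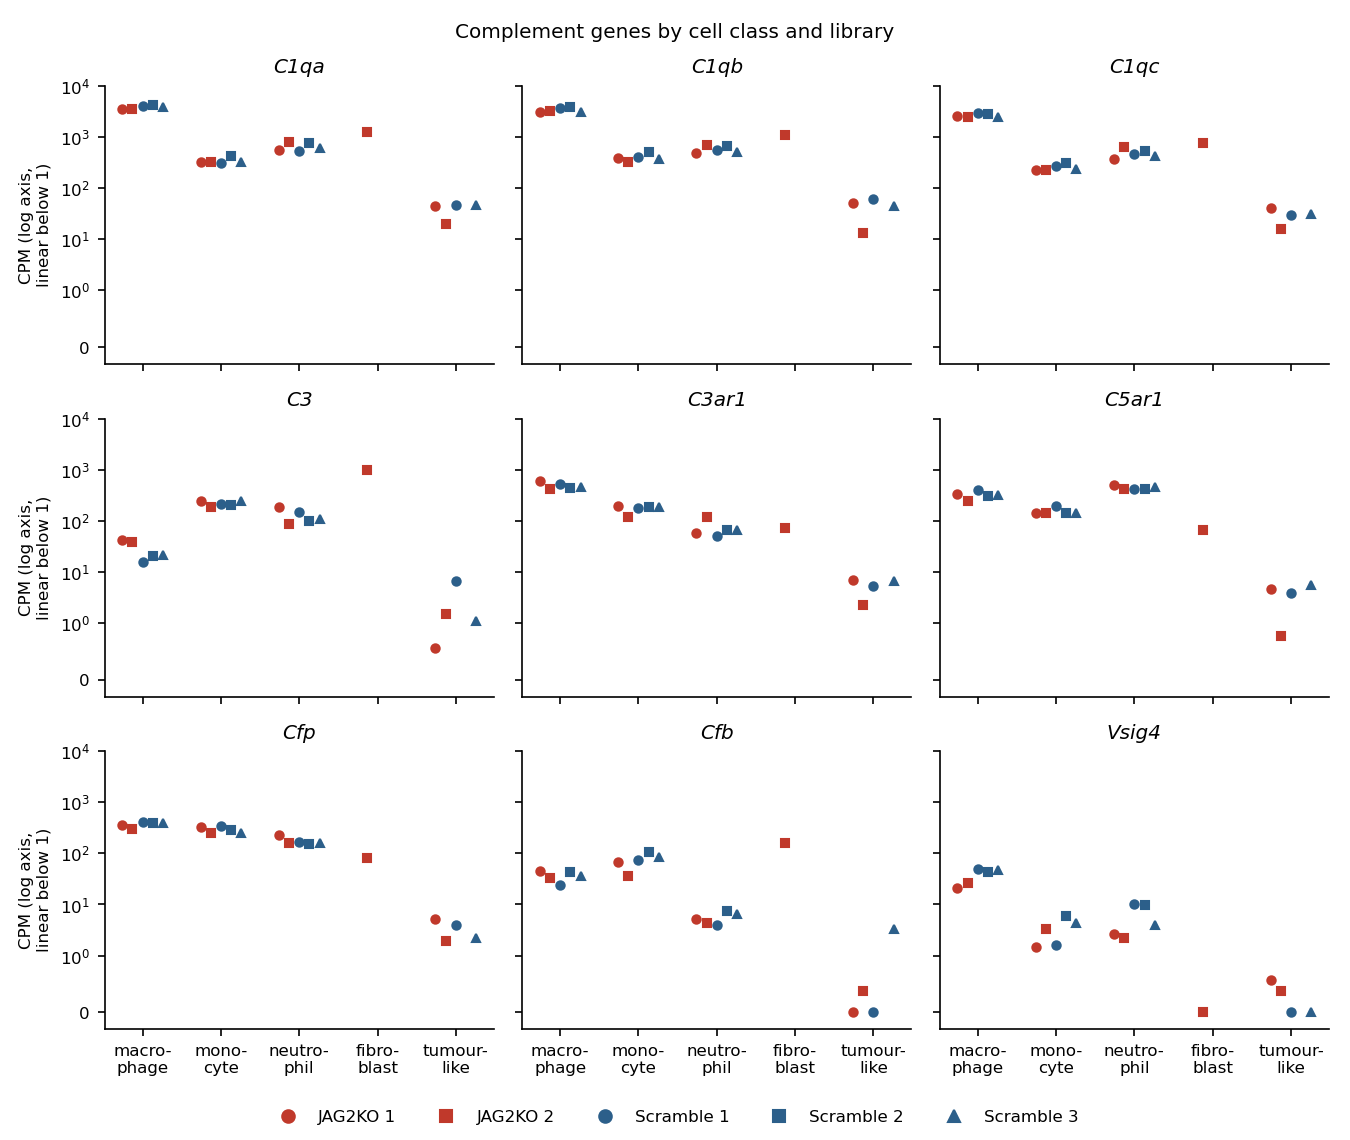
Level of each of the 9 complement genes (CPM, log axis that is linear below 1) in 5 cell classes, with 1 point per library of at least 20 cells of the class, JAG2KO in red and Scramble in blue. The C1q chains and Vsig4 peak in macrophages, C3 and Cfb lie higher in monocytes than in macrophages within each library, and C5ar1 peaks in neutrophils, where its 5 points lie between 415 and 495 CPM.

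The genes whose levels ran most nearly in parallel with each member were sought over 36 sums of 9 cell classes, as Pearson correlations of log2(CPM + 1) that describe these libraries only, since classes of a library share that library. Each C1q chain was closest to the other chains, with correlations of 0.988 to 0.993, followed by Ms4a7 for C1qa and C1qc and by Pf4 for C1qb. Vsig4 ran with Folr2 (0.86), a marker of resident-type macrophages, then with P2ry12 (0.83) and Ms4a7 (0.82). C3 ran with Mgst1 (0.90), Thbs1 (0.88) and Cebpb (0.87), the last of which encodes a C/EBP factor. C5ar1 was closest to Ccl6, Itgam and Abca1 (0.96, 0.96 and 0.95), and C3ar1 to Ctsa, Lyz2 and Fcgr2b (0.96, 0.95 and 0.94). Cfp was closest to Csf2ra, Unc93b1 and Nfam1 (0.95, 0.95 and 0.93), and Cfb to Pid1, Pitpna and Pnp (0.88 for each).

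The comparison of JAG2KO with Scramble tumours asks whether loss of the ligand in tumour cells goes with a different complement program in the host cells around them. In macrophages, C3 was higher and Vsig4 lower in JAG2KO tumours, and the other 7 genes did not pass the test. C3 had 41.5 and 38.3 CPM in JAG2KO macrophages, against 15.4, 20.4 and 21.0 CPM in Scramble macrophages. The JAG2KO values lay above all Scramble values and averaged 39.9 ± 2.22 CPM (SD, n = 2), against 18.9 ± 3.10 CPM in Scramble (SD, n = 3). The log2 fold change was 1.06 ± 0.14 (SE), with an adjusted p of 0.0160 in edgeR's quasi-likelihood test. Vsig4 had 21.1 and 26.1 CPM in JAG2KO macrophages, against 48.7, 42.9 and 47.1 CPM in Scramble macrophages. Here the JAG2KO values lay below all Scramble values, and the log2 fold change was -0.98 ± 0.13 (adjusted p = 0.0164, edgeR). Among all 14321 genes tested in macrophages, 519 passed, or 3.62%, with 1.70% higher and 1.92% lower in JAG2KO.

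C3 stayed past the threshold in 9 of 10 other settings and Vsig4 in 10 of 10. Without Scramble 2 the adjusted p of C3 was 0.0547 (log2 fold change 1.11), and without Scramble 1 that of Vsig4 was 0.0581 (-0.95). When monocytes were summed with macrophages, C3 differed by 0.69 on the log2 scale and missed the threshold (adjusted p = 0.0522, edgeR). The number of genes passing in macrophages was 301 without JAG2KO 2, 85 without Scramble 1 and 82 without Scramble 2.

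For the other members the macrophage values were close. C1qa was lower in both JAG2KO libraries (3540 and 3581 CPM) than in the 3 Scramble libraries (4090, 4261 and 3864 CPM), but its log2 fold change of -0.21 ± 0.12 did not pass (adjusted p = 0.407, edgeR). C1qb and C1qc overlapped between the groups, with log2 fold changes of -0.19 and -0.13. Cfp stood at 365 and 298 CPM in JAG2KO, below the 420, 386 and 388 CPM of Scramble, and its log2 fold change of -0.28 ± 0.10 did not pass (adjusted p = 0.190, edgeR). C5ar1 (-0.22), C3ar1 (0.09) and Cfb (0.14) overlapped between the groups. So 1 of the 9 genes was above and 3 were below all Scramble values without overlap, against 18.6% and 15.3% of all genes tested. The median log2 fold change of the 9 was -0.19, and that of all genes tested 0.003.

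**Figure D2:**
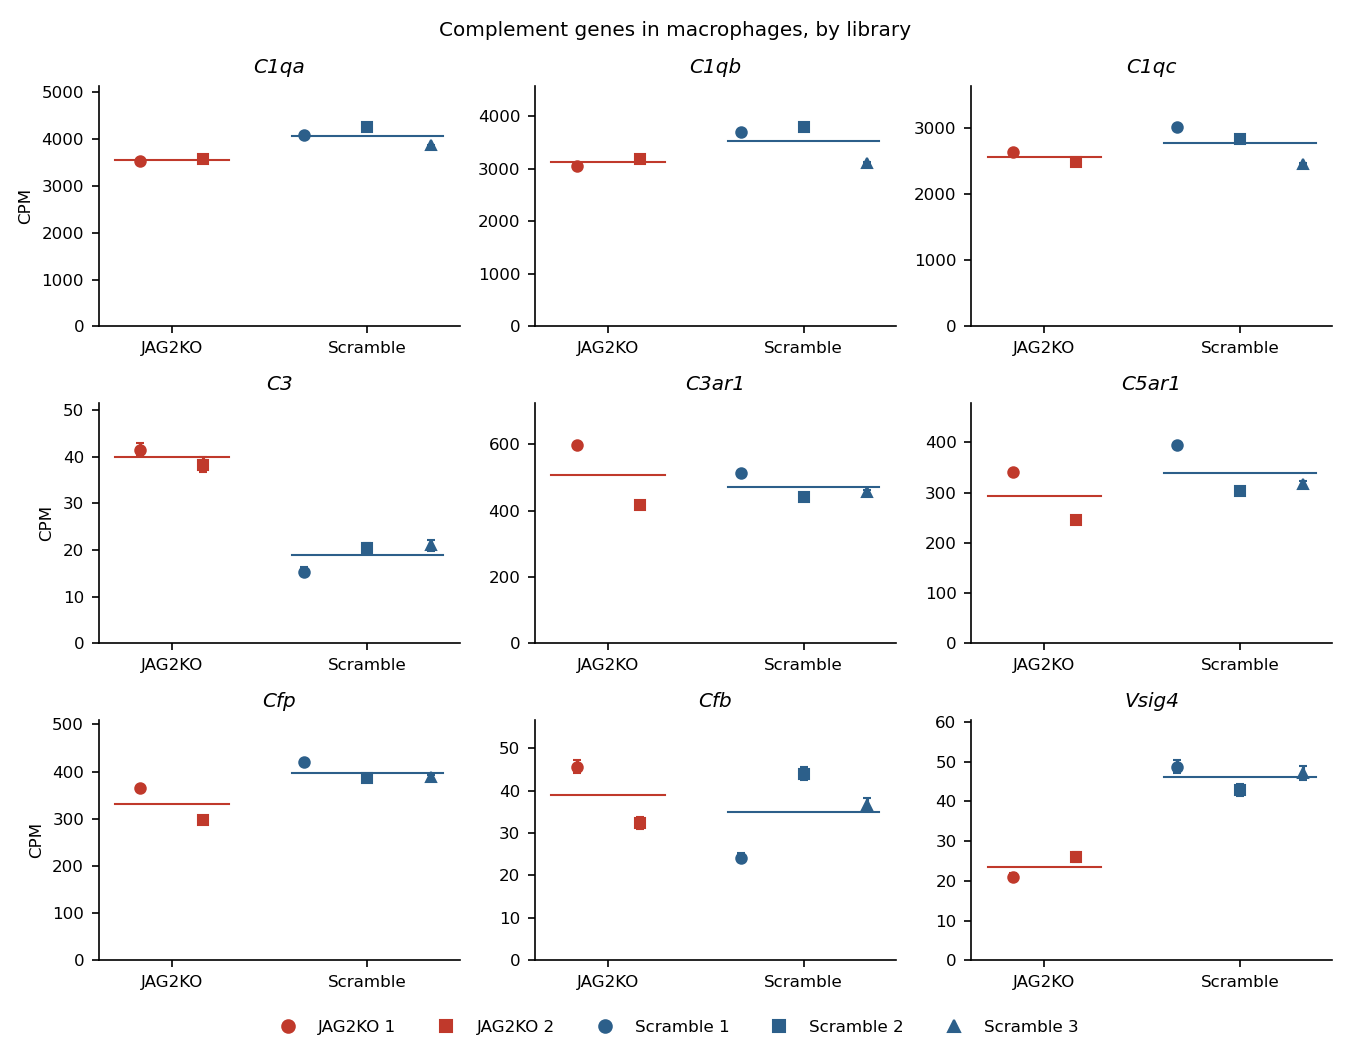
Level of the 9 genes in macrophages (CPM, axes from 0), with 1 point per library, JAG2KO on the left and Scramble on the right. Horizontal lines are group means and bars are 95% Poisson intervals, which cover counting error only; C3 lies at 38.3 to 41.5 in JAG2KO against 15.4 to 21.0 in Scramble, and Vsig4 at 21.1 to 26.1 against 42.9 to 48.7.

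Other signals moved with these differences. The summed level of 8 interferon gamma response genes in macrophages was 709 and 753 CPM in JAG2KO, against 242, 465 and 345 CPM in Scramble. The 6 MHC class II genes summed to 5317 and 13666 CPM in JAG2KO, against 2687, 4990 and 4602 CPM in Scramble. The 8 macrophage gate markers summed to 9457 and 7422 CPM in JAG2KO, against 10878, 11596 and 10039 CPM in Scramble. Fibroblast markers in macrophages, at 83.5 and 153 CPM in JAG2KO and 161, 137 and 103 CPM in Scramble, overlapped between the groups, and so did the monocyte markers, at 658 and 829 CPM in JAG2KO and 580, 677 and 756 CPM in Scramble. C3 in T and NK cells was 2.96 and 1.56 CPM in JAG2KO and 0, 4.73 and 0 CPM in Scramble. These levels rest on 6 and 3 UMIs in JAG2KO and on 0, 2 and 0 in Scramble, too few to compare the groups. The 6 hypoxia and glycolysis genes in the table summed to 2248 and 2547 CPM in JAG2KO, below the 3040, 2951 and 3297 CPM of Scramble. The 8 resident macrophage genes summed to 2723 and 1284 CPM in JAG2KO, against 2624, 2387 and 2525 CPM in Scramble, which lie between the JAG2KO values. The part of the interferon, MHC class II, hypoxia, resident and macrophage marker levels in the C3 and Vsig4 differences was not tested. Nor was that of RNA carried over from fibroblasts, monocytes or other cells.

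In monocytes no member passed the test. C3 in monocytes averaged 215 ± 40.8 CPM in JAG2KO (SD, n = 2) and 217 ± 19.9 CPM in Scramble (SD, n = 3), a log2 fold change of -0.01 ± 0.14 (adjusted p = 0.993, edgeR). Cfb had the lowest p of the 9 genes in monocytes, with 67.6 and 36.6 CPM in JAG2KO below the 74.1, 107 and 84.4 CPM of Scramble. Its log2 fold change of -0.73 ± 0.22 did not pass (adjusted p = 0.194, edgeR), but it did when no filter on low counts was used (-0.75, adjusted p = 0.00171, edgeR). None of the 9 genes passed in monocytes, against 74 of all 9471 genes (0.781%), and 2 of the 9, C1qc and Cfb, were below Scramble without overlap, against 13% of all genes. At an unadjusted p below 0.05, Cfb was the only member, against 9.99% of all genes. The log2 fold changes of the others were -0.16 for C1qa, -0.28 for C1qb, -0.23 for C1qc, -0.21 for C3ar1, -0.17 for C5ar1 and -0.01 for Cfp. Vsig4 had -0.86 ± 0.68 on levels of at most 5.97 CPM. The count of 74 was 16 without JAG2KO 1, 29 without JAG2KO 2 and 175 without Scramble 1.

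The genotype effect was set against that in macrophages in 1 model over all classes. For C3 the effect in monocytes was 1.13 ± 0.23 lower on the log2 scale than in macrophages, a difference of -1.13 with an adjusted p of 0.0484 (edgeR). For Cfb the difference was -0.96 ± 0.19 (adjusted p = 0.0484, edgeR). Of all 11317 genes 19 passed this test (0.168%), 2 of them among the 9. Without JAG2KO 2 the differences were -0.97 and -0.80 and did not pass (adjusted p = 0.415 and 0.456, edgeR), and 9 genes passed in all. In neutrophils the C3 effect differed from that in macrophages by -1.12 ± 0.29 and did not pass (adjusted p = 0.0933, edgeR), while 0.318% of all genes did.

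Neutrophils had fewer UMIs per cell than macrophages, and tumour-like cells were few. In neutrophils 8 of the 9 genes were tested, since Cfb was too low, and none passed, against 10 of all 8001 genes (0.125%). C3 averaged 138 ± 71.5 CPM in JAG2KO neutrophils (SD, n = 2) and 118 ± 25.7 CPM in Scramble neutrophils (SD, n = 3), with a log2 fold change of 0.21 ± 0.29. Vsig4 had 1 and 1 UMIs in JAG2KO neutrophils (2.65 and 2.17 CPM), against 15, 17 and 6 in Scramble neutrophils (10.0, 9.75 and 3.89 CPM). Its groups did not overlap, against 14.3% of all genes with JAG2KO lower, and its log2 fold change of -1.68 ± 0.97 did not pass (adjusted p = 0.705, edgeR). C3ar1 averaged 88.9 ± 43.4 CPM in JAG2KO and 60.4 ± 9.43 CPM in Scramble, with a log2 fold change of 0.58 ± 0.29 (unadjusted p = 0.0614 and adjusted p = 0.657, edgeR). C5ar1 averaged 455 ± 56.6 CPM in JAG2KO and 434 ± 18.3 CPM in Scramble, with a log2 fold change of 0.07 ± 0.21. The log2 fold changes of the others were 0.07 for C1qa, 0.03 for C1qb, 0.07 for C1qc and 0.30 for Cfp. No member reached an unadjusted p below 0.05 in neutrophils, against 7.61% of all genes. In tumour-like cells, where Scramble 2 with 19 cells was left out, only the C1q chains passed the filter on low counts. None of these 3 passed the test, against 171 of all 8843 genes (1.93%), and 14.4% of all genes had an unadjusted p below 0.05. Their log2 fold changes were -0.46 ± 0.35 for C1qa, -0.69 ± 0.49 for C1qb and -0.09 ± 0.41 for C1qc, and C1qa was below Scramble without overlap, against 27.5% of all genes. C3 had 1 and 4 UMIs in JAG2KO tumour-like cells and 5, 10 and 1 in Scramble, and Cfb had 0 and 1 in JAG2KO and 0, 0 and 3 in Scramble. Fibroblasts reached 20 cells in JAG2KO 2 alone, so no test was made there.

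**Figure D3:**
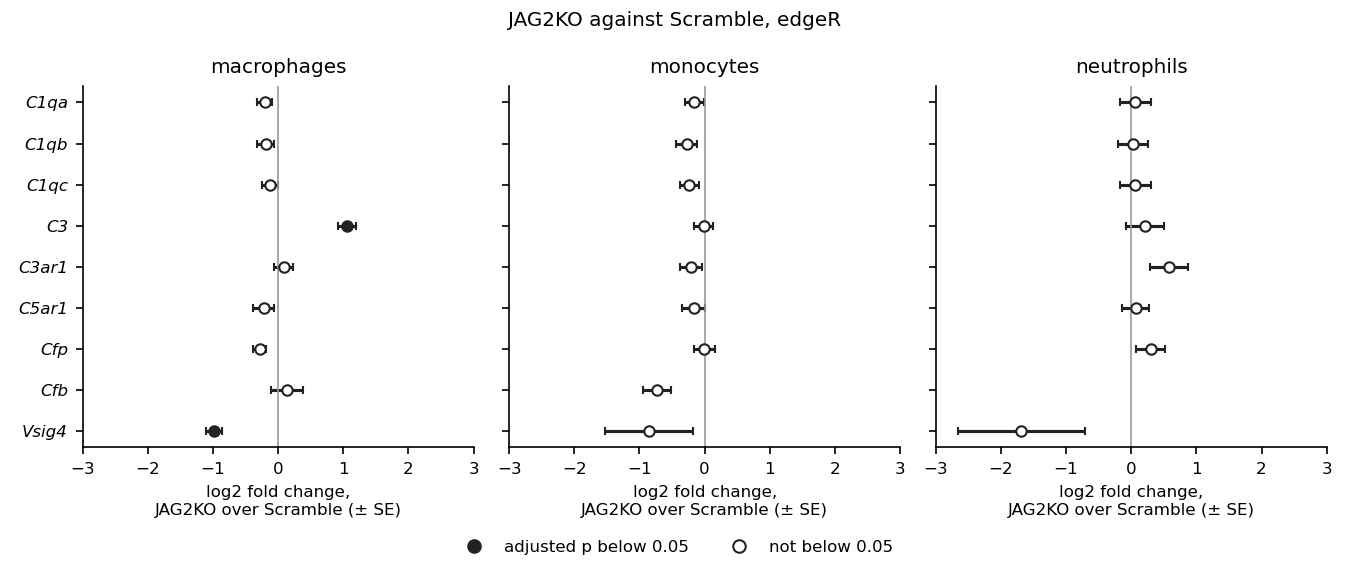
Log2 fold change of JAG2KO over Scramble with its standard error for the 9 genes in macrophages, monocytes and neutrophils, filled where the adjusted p is below 0.05 (edgeR). Filled points are C3 (1.06) and Vsig4 (-0.98) in macrophages only, and Cfb in neutrophils was too low to test.

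In each of the 5 libraries C3 was higher in macrophages with 3 or more detected monocyte markers than in those with none, and JAG2KO lay above Scramble at each step. Cells with none of the 8 monocyte markers had 28.6 and 27.1 CPM of C3 in JAG2KO, against 10.2, 10.1 and 10.4 CPM in Scramble. Cells with 3 or more had 76.4 and 48.5 CPM in JAG2KO, against 33.0, 35.5 and 38.1 CPM in Scramble. With 1 or 2 markers the JAG2KO values, 31.4 to 49.0 CPM, also lay above the Scramble values of the same step. Cfb also was higher in cells with 3 or more markers than in those with none in each of the 5 libraries, with 88.2 and 48.1 CPM against 30.5 and 22.3 CPM in JAG2KO, but its groups overlapped at every step. Vsig4 ran the other way. In cells without monocyte markers it stood at 43.0 and 66.2 CPM in JAG2KO, which overlapped with the 60.8, 82.5 and 79.0 CPM of Scramble. In cells with 1 marker it stood at 19.0 and 16.8 CPM in JAG2KO, against 55.5, 42.0 and 50.4 CPM in Scramble, and in cells with 2 markers at 12.0 and 10.97 CPM in JAG2KO, against 35.8, 33.6 and 35.2 CPM in Scramble. These levels per step are a description, since depth per cell also sets how many markers are detected.

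**Figure D4:**
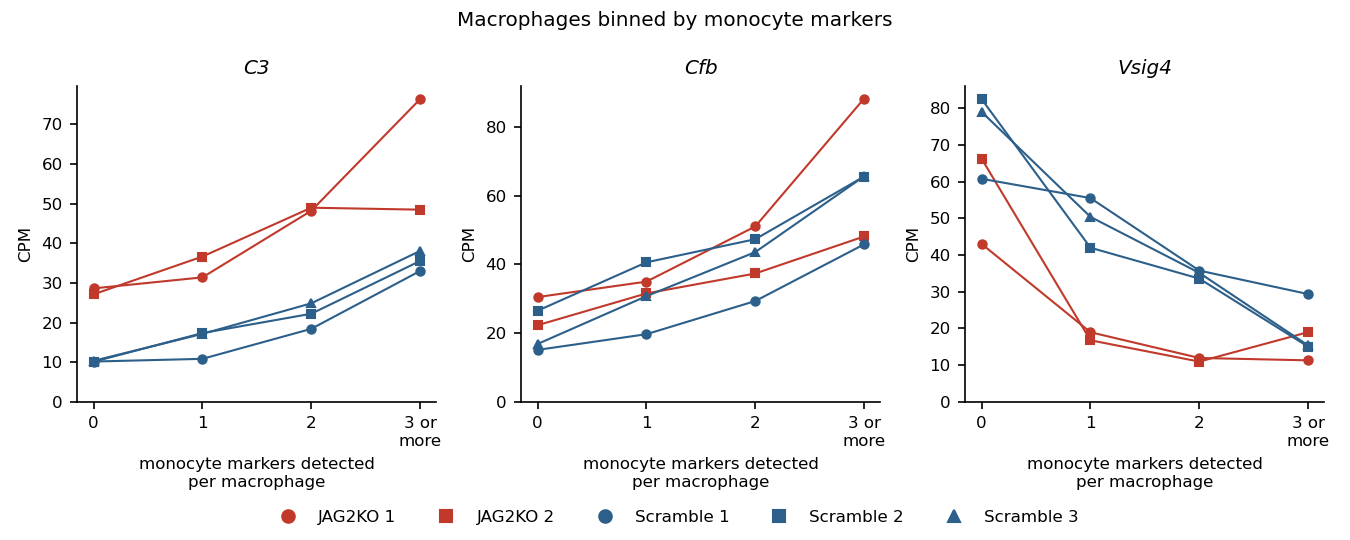
C3, Cfb and Vsig4 (CPM, axes from 0) in macrophages with 0, 1, 2 or 3 or more of the 8 monocyte markers detected, with 1 line per library, JAG2KO in red and Scramble in blue. C3 of both JAG2KO libraries lies above all Scramble libraries at each step, Cfb lines cross, and Vsig4 is separated at 1 and 2 markers only.

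Macrophages were also split by other genes after each cell had been thinned to 2000 UMIs. Shallower macrophages were left out. There remained 6779 of 6995 and 8168 of 13011 in JAG2KO, against 6298 of 6529, 6679 of 7052 and 5117 of 5327 in Scramble. The values below cover these cells only, which are a smaller part of JAG2KO 2 than of the other libraries. What this adds to the group differences was not tested. In macrophages with a UMI of the interferon gamma response list, C3 stood at 73.3 and 47.9 CPM in JAG2KO and at 42.3, 44.1 and 40.5 CPM in Scramble. In those without one it stood at 31.2 and 26.4 CPM in JAG2KO, against 17.5, 17.4 and 17.9 CPM in Scramble. The groups did not overlap in either subset, and the share of macrophages with such a UMI was itself 39.0% and 48.8% in JAG2KO, against 22.7%, 33.3% and 29.7% in Scramble. In macrophages with a UMI of Folr2, Vsig4 stood at 31.9 and 44.1 CPM in JAG2KO and at 63.0, 51.1 and 58.2 CPM in Scramble. Without Folr2 it stood at 11.7 and 20.6 CPM in JAG2KO, against 24.6, 24.0 and 25.2 CPM in Scramble. In macrophages with a UMI of the resident list Vsig4 stood at 23.2 and 36.7 CPM in JAG2KO, against 46.7, 40.5 and 44.6 CPM in Scramble. In those without one it was low and overlapped between the groups, at 1.56 and 5.30 CPM in JAG2KO (4 and 25 UMIs) and 2.73, 3.37 and 4.505 CPM in Scramble. Folr2-positive macrophages made up 36.8% and 30.01% in JAG2KO and 37.7%, 36.6% and 35.1% in Scramble.

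The 9 genes differed in the macrophages that carried them. Macrophages with a C3 UMI had 2.56 to 4.50 times the interferon gamma response level of those without one and 1.36 to 1.97 times the MHC class II level, in all 5 libraries, but 0.630 to 0.836 times the level of the resident macrophage genes. Cfb split macrophages in the same way for the interferon gamma list, with ratios of 2.90 to 4.40, and for MHC class II, with 1.32 to 1.64. Its ratios for resident macrophage genes, 0.852 to 1.45, differed in direction between libraries. Macrophages with a Vsig4 UMI had 1.62 to 2.16 times the resident macrophage level and 0.124 to 0.505 times the MHC class II level. For the C1q chains the resident ratios were 2.70 to 4.34 for C1qa, 2.33 to 3.97 for C1qb and 2.71 to 4.09 for C1qc. Of these thinned macrophages only 443 to 819 of a library lacked a C1qa UMI, while only 126 to 250 had a Vsig4 UMI. Such ratios depend on how common a gene is and are not ranked here. The resident level was 1278 to 2831 CPM with a C1qa UMI and 1968 to 5421 CPM with a Vsig4 UMI. It was higher with Vsig4 in each of the 5 libraries. C1qa lay with lower NF-kB response (0.414 to 0.740) and lower hypoxia and glycolysis levels (0.508 to 0.718). For C3ar1 the resident ratio was 1.30 to 1.67, for C5ar1 it was 1.26 to 1.46 and for Cfp 1.16 to 1.21.

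C3 and Cfb were detected in the same macrophage 1.54 to 2.73 times as often as their separate shares would give, in all 5 libraries. Vsig4 with a C1q chain was at 1.05 to 1.16 times that expectation. C3 was found together with C5ar1 at 0.735 to 0.926 times it and with C3ar1 at 0.827 to 0.986 times it. The ratio of a pair cannot exceed 1 over the share of its commoner gene, so that pairs with a C1q chain, found in most macrophages, are bound to lie near 1, and the pairs are not ranked here.

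**Figure D5:**
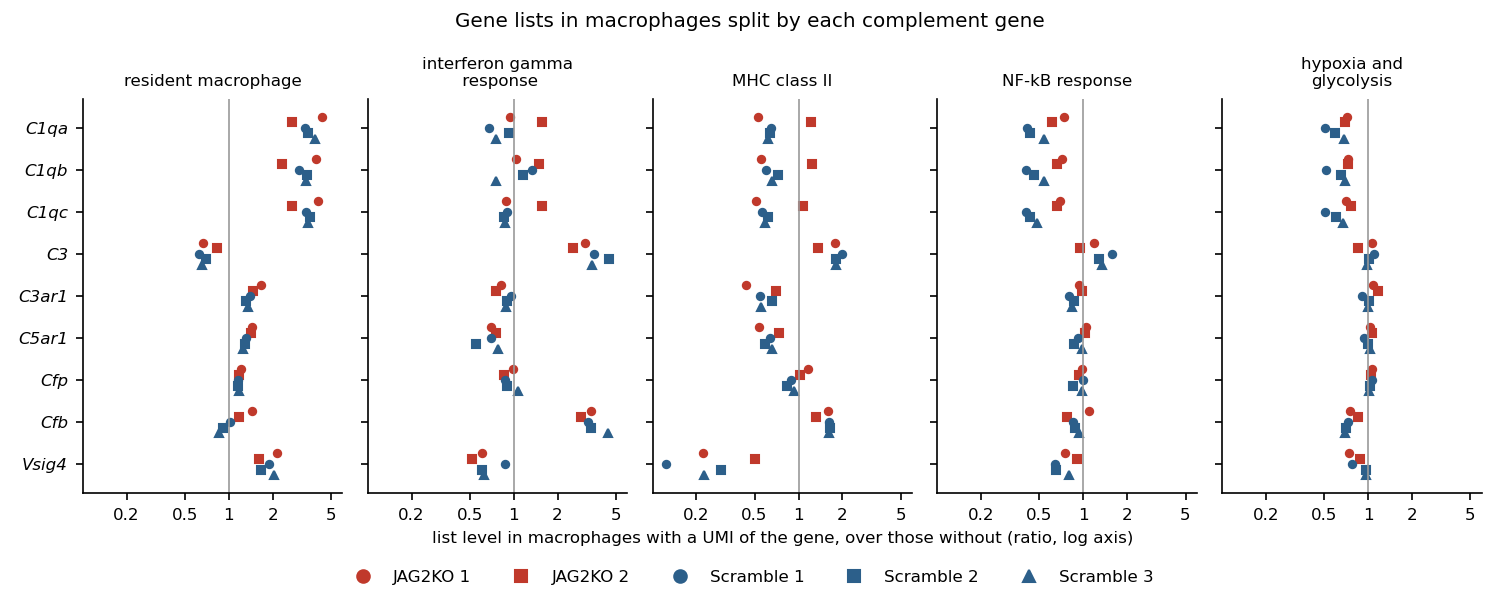
Summed level of 5 gene lists in macrophages with a UMI of each complement gene over that in macrophages without one (ratio, log axis), with 1 point per library, JAG2KO in red and Scramble in blue. Only cells of at least 2000 UMIs were used, thinned to 2000. For interferon gamma response genes the C3 and Cfb points lie at 2.56 to 4.50, and for MHC class II genes the Vsig4 points lie at 0.124 to 0.505.

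Shares of cells with a UMI were compared after each cell had been thinned to 1000 UMIs, and 72 and 1782 shallower macrophages of JAG2KO and 56, 153 and 72 of Scramble were left out. C3 was detected in 3.87% ± 0.365 of JAG2KO macrophages (SD, n = 2) and 2.30% ± 0.121 of Scramble macrophages (SD, n = 3). Vsig4 was detected in 1.56% ± 0.332 of JAG2KO and 2.43% ± 0.0938 of Scramble macrophages, and Cfp in 26.6% ± 3.47 of JAG2KO and 30.6% ± 1.86 of Scramble macrophages. In these 3 cases the groups did not overlap, and the exact permutation test gave its smallest possible p of 0.1, two-sided over 10 splits (adjusted p = 0.540 over 27 tests). C1qa was detected in 85.9% ± 5.96 of JAG2KO and 83.8% ± 2.22 of Scramble macrophages. In monocytes C1qa, C5ar1 and Cfb shares were lower in JAG2KO and C3 higher without overlap. C3 was in 19.9% ± 1.93 of JAG2KO and 17.6% ± 0.594 of Scramble monocytes. In neutrophils C1qa and C1qc were lower and C3ar1 and Cfp higher without overlap. Cfp was in 16.6% ± 0.787 of JAG2KO and 13.5% ± 0.585 of Scramble neutrophils. Both overlapped at 2000 UMIs. How many of all genes separate in this way was not counted. No share passed, and this design cannot reach a p below 0.05. Without thinning C3 was detected in 16.4% of JAG2KO and 11.9% of Scramble macrophages, with overlap between the groups, and Vsig4 in 3.42% of JAG2KO and 7.13% of Scramble macrophages. T and NK cells thinned in the same way held C3 in at most 0.21% and Vsig4 in none. With 498 and 480 such cells in JAG2KO this allows a Vsig4 share of up to 0.602% and 0.625%, but with 114, 99 and 84 in Scramble up to 2.63%, 3.03% and 3.57%, above the share in Scramble macrophages. Before thinning the median depth was 2871 to 3424.5 UMIs in T and NK cells and 3516 to 10032 in macrophages.

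Of 42 other complement genes, 23 could be tested in macrophages, and 1 was higher and 2 were lower in JAG2KO, where 1.70% and 1.92% of all genes were. Without overlap between the groups 7 were higher and 6 lower, against 18.6% and 15.3% of all genes. These lists were chosen with earlier results of these data known. C4b, the mouse C4 of the classical pathway, had 46.4 and 25.9 CPM in JAG2KO, against 71.7, 86.0 and 76.3 CPM in Scramble, a log2 fold change of -1.13 ± 0.21 (adjusted p = 0.0380, edgeR). Without Scramble 1, 2 or 3 its adjusted p was 0.0849, 0.110 or 0.0780. C5ar2, the second receptor for C5a, had 14.4 and 14.0 CPM in JAG2KO, against 20.4, 19.1 and 21.1 CPM in Scramble, a log2 fold change of -0.53 ± 0.09 (adjusted p = 0.0305, edgeR). It did not pass when any 1 library was left out, at adjusted p of 0.0613 to 0.0919. Cd55, an inhibitor of the C3-cleaving enzymes, was at 1.79 ± 0.0776 CPM in JAG2KO and 0.396 ± 0.0387 CPM in Scramble (SD, n = 2 and 3), a log2 fold change of 2.16 ± 0.21 (adjusted p = 0.00852, edgeR). T and NK cells had 16.1 to 56.8 CPM of Cd55, and their 8 markers in macrophages summed to 17.9 and 54.8 CPM in JAG2KO, against 4.63, 10.4 and 5.61 CPM in Scramble. Their part in the Cd55 difference was not tested.

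The median log2 fold change of the 23 genes was -0.24. By list, 1 of 5 tested classical pathway genes was lower, none of 3 lectin pathway genes, of 1 alternative pathway gene or of 2 terminal pathway genes passed, 1 of 7 regulators was higher, and 1 of 5 other receptors was lower. Among the most abundant in macrophages, Fcna, a ficolin of the lectin pathway, had 73.9 ± 17.5 CPM in JAG2KO and 96.7 ± 10.3 CPM in Scramble (SD, n = 2 and 3) and did not pass (adjusted p = 0.177, edgeR). Itgam and Itgb2, which encode the chains of complement receptor 3, averaged 720 and 412 CPM in macrophages over the 5 libraries, and Itgam 655 CPM in monocytes and 592 CPM in neutrophils. Of the terminal pathway genes none averaged above 1.09 CPM in macrophages, monocytes, neutrophils or tumour-like cells.

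In fibroblasts the classical pathway genes were present beside C3. The 64 cells of JAG2KO 2 had 214 CPM of C4b, 184 CPM of C1s1 and 155 CPM of C1ra, the last pair being proteases of the C1 complex, and 177 CPM of Serping1, their inhibitor. Serping1 was at or below 0.1 CPM in macrophages. In tumour-like cells 7 of the 42 genes were tested. The 2 from the lectin pathway list, Colec12 and Masp1, passed in opposite directions, so they give no common direction for that list. Colec12 had 41.3 and 38.2 CPM in JAG2KO, against 6.59 and 5.47 CPM in Scramble 1 and 3, a log2 fold change of 2.80 ± 0.35 (adjusted p = 0.00329, edgeR). Masp1, a protease of the lectin pathway, had 11.3 and 11.8 CPM in JAG2KO, against 39.5 and 36.1 CPM in Scramble 1 and 3, a log2 fold change of -1.61 ± 0.29 (adjusted p = 0.0187, edgeR). In the same fit 1.93% of all genes passed. Masp1 did not pass without Scramble 1 or without Scramble 3 (adjusted p = 0.0907 and 0.0679).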

How the data were processed

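The values are UMI counts per gene and cell as deposited by the authors, unnormalised, and per the file headers they were made with cellranger 6.0.0. The submitters' processing notes also name Seurat, GRCm38 and mm10 with no role given. The deposited counts came from 10262 to 21854 barcodes and 84788907 to 111680641 UMIs per library. Kept cells had 500 or more UMIs, 250 or more genes and no more than 10% mitochondrial UMIs, and the 8% with the highest doublet score per library (Scrublet's method, scanpy 1.11.5) were removed. A class needed at least 3 of its 8 markers and more than any other list. Macrophages and monocytes could have at most 1 dendritic marker. Fibroblasts had no UMI of Rhox5 or Ptprc. Tumour-like cells had at least 3 Rhox5 UMIs, none of Ptprc and fewer than 4 markers of every immune list. UMIs were summed per class and library, and sums of at least 20 cells were tested with edgeR 4.0.16 (quasi-likelihood test, TMM scaling, filter on low counts, Benjamini-Hochberg adjustment over all genes, threshold 0.05) in R 4.3.3. Differences between classes, and of the genotype effect between classes, came from 1 edgeR fit with the library as a block. Shares were tested with exact permutation tests (numpy 2.4.6), and intervals were computed with scipy 1.17.1. Alternatives were DESeq2 1.42.0, other cell, gene and doublet filters, stricter gates, thinned sums, a replicate block and leaving out each library. A minimum of 2000 UMIs was added after seeing the data. The edgeR fits were tested on simulated data. Of simulated log2 changes of size 1, they recovered 72.4% in macrophages, 64.3% in monocytes, 26.3% in neutrophils and 41.2% in tumour-like cells. False calls were 2.58% to 7.62% of the calls. Changes of this size could therefore often be missed in neutrophils and tumour-like cells. The 95% Poisson and binomial intervals, and limits of 3 counts where a count was 0, cover counting error only. The 9 members are named throughout. Of the other complement genes, those past the threshold in macrophages and up to 3 per list with the highest level in a class could be named, and for each member the 3 genes with the most similar profile and a mean of at least 10 CPM. Masp1 and Colec12 are named as 2 of the few tested in tumour-like cells. The members and lists were chosen with earlier results of these data known. Fibroblasts were not tested because 1 library alone reached 20 cells.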

Additional observations from a re-analysis of the deposited data

Results flagged for a closer look

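Both results below stand out because the genotype effect differed between monocytes and macrophages in a test of the difference itself. For C3 the difference was -1.13 on the log2 scale (adjusted p = 0.0484, edgeR). The C3 fold change of JAG2KO over Scramble was -0.01 in monocytes, against 1.06 in macrophages. For Cfb the difference was -0.96 (adjusted p = 0.0484, edgeR), with fold changes of -0.73 in monocytes, against 0.14 in macrophages, neither of which passed by itself. Without JAG2KO 2, the library with the lowest depth per cell, neither difference passed.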

How the results depend on the processing

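C3 and Vsig4 kept their direction in macrophages under every alternative. The log2 fold change of C3 was 0.93 to 1.15 and that of Vsig4 -1.19 to -0.81 when 1 library was left out. The number of genes past the threshold moved more. In macrophages it was 519, against 1274 with DESeq2, 1334 without a filter on low counts, 1205 with the replicate block and 82 to 631 with 1 library left out. In monocytes it was 74, against 316 without the filter, 25 with stricter gates, 49 with at least 2000 UMIs per cell, 153 with the replicate block and 16 to 175 with 1 library left out. In neutrophils it was 10, against 98, 17, 0 and 27 under the same 4 settings and 11 to 30 with 1 library left out. In tumour-like cells it was 171, against 109 with DESeq2, 509 without the filter and 57 to 277 with 1 library left out, where leaving out a Scramble library leaves 1 that is assumed to vary like the others. Without JAG2KO 2 the genotype effect differed from that in macrophages for 9 genes in monocytes (19 with it), 23 in neutrophils (36) and 61 in tumour-like cells (173). Masp1 did not pass with DESeq2 (-1.62, adjusted p = 0.0880) or thinned sums (-1.48, adjusted p = 0.0707). Over all values run, shares and differences between classes included, 33 turned in sign outside the settings that leave out a library and 32 within them, none past the threshold. Of those given here, in monocytes these were Cfp at 0.0057 with at most 5% mitochondrial UMIs, C5ar1 at 0.0198 with stricter gates, and C3 at 0.0067 with at least 2000 UMIs and 0.034 with the replicate block. In neutrophils, stricter gates gave C1qa -0.12, C1qb -0.24, C1qc -0.19 and C5ar1 -0.029, kept doublets C1qa -0.058, C1qb -0.13 and C1qc -0.11, at most 5% mitochondrial UMIs C1qa -0.034 and C1qb -0.041, no filter C1qb -0.030, the replicate block C1qb -0.080 and C1qc -0.047 and, with at least 2000 UMIs, C3 -0.25 and C5ar1 -0.26. In tumour-like cells thinned sums gave C1qc 0.33. The C1qa share of macrophages differed by -0.061 percentage points without thinning, and the C3 share of monocytes by -5.49. With thinning to 2000 UMIs the Cfp and C3ar1 shares of neutrophils differed by -0.95 and -0.40. With 1 library left out, the ranges crossed 0 in macrophages for C3ar1 (-0.15 to 0.29) and Cfb (-0.093 to 0.33), in monocytes for C3 (-0.21 to 0.14), C3ar1 (-0.61 to 0.076), C5ar1 (-0.27 to 0.030) and Cfp (-0.19 to 0.15), in neutrophils for C1qa (-0.19 to 0.28), C1qb (-0.23 to 0.24), C1qc (-0.36 to 0.38), C3 (-0.46 to 0.70), C3ar1 (-0.027 to 0.96) and C5ar1 (-0.082 to 0.22), and in tumour-like cells for C1qa (-1.10 to 0.055), C1qb (-1.88 to 0.047) and C1qc (-0.86 to 0.50). The cause of these changes was not tested. Equal replicate numbers were not stated to pair libraries. Deviations from the group means in macrophages correlated at 0.20 between JAG2KO 1 and Scramble 1 and at 0.17 between JAG2KO 2 and Scramble 2. With only 2 JAG2KO libraries the deviations of JAG2KO 1 and JAG2KO 2 are mirror images. The values for JAG2KO 2 with Scramble 1 and JAG2KO 1 with Scramble 2 were thus -0.20 and -0.17. These correlations therefore cannot show whether libraries were paired. The replicate block could not be fitted in tumour-like cells, and fibroblasts had no test under any setting. Low counts limit Vsig4 outside macrophages and all members but the C1q chains in tumour-like cells.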
